A study of Drosophila melanogaster with 3 samples.

Results

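The heat shock and chaperone genes of Drosophila melanogaster were examined in a chromatin immunoprecipitation sequencing (ChIP-seq) map of Chrac-16. They were all protein-coding genes of the Ensembl annotation whose symbol begins with Hsp, Hsc70 or DnaJ, or with CCT followed by a digit. The rule gave 35 genes of the 13945 protein-coding genes on the 6 chromosome arms used, and it used no measured value. Of these, 15 were classed as heat-inducible and 20 as constitutive chaperones from textbook knowledge of the genes. The data hold no measure of expression, so constitutive here means only not classed as heat-inducible. All samples were whole embryos of mixed sex, aged 0 to 24 h, from a single stable transgenic line in which Chrac-16 carries GFP at its carboxyl end, and the chromatin was precipitated with an antibody against GFP. The 3 biological replicates form 1 group, with no second genotype, treatment or time, and the labels name no heat treatment. The labels name neither the promoter that drives the tagged protein nor whether untagged Chrac-16 was still present. In whole embryos, occupancy in fewer cells and lower occupancy per cell cannot be told apart.

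Chrac-16 is a small histone-fold protein of CHRAC, a complex in which the ATPase Iswi and its partner Acf slide and space nucleosomes, and its histone-fold pair binds DNA. Heat shock genes are a classic model of promoter chromatin. Their promoters carry heat shock elements, arrays of inverted nGAAn units bound by the heat shock factor Hsf, and the Hsp70 and Hsp26 promoters also carry GAGA sites and hold a paused RNA polymerase before heat shock. The products are chaperones of several families. Small heat shock proteins hold unfolding proteins, Hsp70 and Hsc70 proteins fold clients with DnaJ partners, Hsp83 is the cytosolic Hsp90, Hsp60 forms the mitochondrial chaperonin and CCT subunits form the cytosolic chaperonin that folds actin and tubulin.

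A gene had a promoter summit when the highest point of a peak lay within 500 bp of one of its annotated transcript starts. In the optimal list, the authors' 4941 reproducible peaks, 11 of the 35 genes had one (31.4%, exact 95% interval 16.9 to 49.3), against 22.5% of all protein-coding genes. Among the inducible genes 4 of 15 had one (26.7%, interval 7.79 to 55.1), namely Hsp27, Hsp26, Hsp22 and Hsp83. Among the constitutive genes 7 of 20 had one (35.0%, interval 15.4 to 59.2), namely DnaJ-H, Hsc70-5, Hsc70-4, CCT8, CCT3, CCT5 and Hsp60A. Both intervals hold the background share, and the intervals of the classes overlap. They cover counting error only, over genes that are not independent.

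The pooled relaxed list, called on all replicates together and 24641 peaks long, gave 20 of 35 genes (57.1%) against 49.7% of all protein-coding genes. Here 14 of 20 constitutive genes (70%, interval 45.7 to 88.1) and 6 of 15 inducible genes (40.0%, interval 16.3 to 67.7) had a summit. When each replicate list was limited to its 4941 strongest peaks, 11 genes had a summit in each of the 3 replicates, against 22.0%, 21.9% and 22.4% of all protein-coding genes. The inducible count was then 4, 4 and 3 of 15, and the constitutive count was 7, 7 and 8 of 20. In the full relaxed lists of replicates 1, 2 and 3 the counts were 22, 19 and 20 of 35, against 52.7%, 47.0% and 52.3%. Constitutive genes then had a summit in 70% ± 5.0 and inducible genes in 42.2% ± 10.2 (SD, n = 3). The inducible shares rise when the 6 near-identical Hsp70 copies are set aside, to 4 of 9 in the optimal list (44.4%, interval 13.7 to 78.8) and 6 of 9 in the pooled list (66.7%, interval 29.9 to 92.5). In the full relaxed lists of replicates 1, 2 and 3 the inducible counts without the copies were 8, 6 and 5 of 9 (88.9%, 66.7% and 55.6%). The constitutive shares there were 70%, 65% and 75%. The plot of these shares shows wide intervals around every class.

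**Figure D1:**
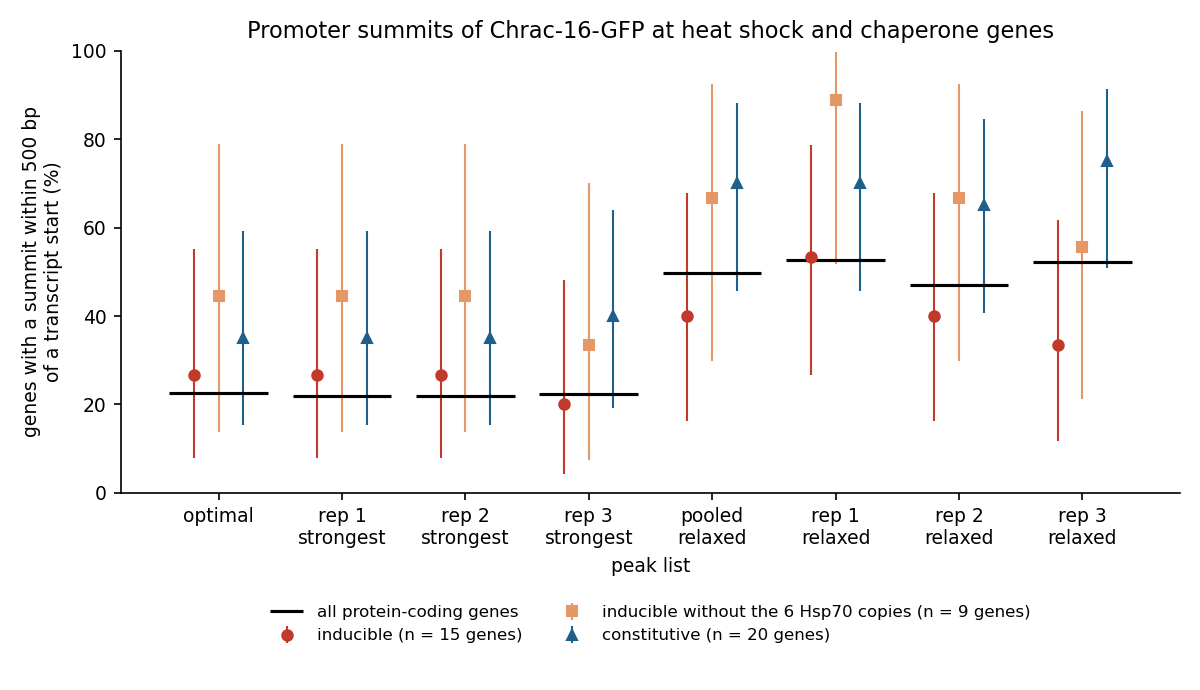
Share of genes with a Chrac-16-GFP summit within 500 bp of a transcript start, in percent, for 8 peak lists. Points are gene classes with exact 95% binomial intervals, and black bars are all protein-coding genes. The constitutive genes lie at 35.0% in the optimal list and 70% in the pooled list, and the inducible genes at 26.7% and 40.0%.

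The sequences under the summits are shown first for genes where summit and promoter sequence can be read together, on the release 6 genome (dm6), each in the direction of its gene from 5′ to 3′. The Hsp27, Hsp26, DnaJ-H, Hsc70-4 and Hsp60A windows are the 201 bases centred on the optimal summit. The Hsp23, Hsp68 and Hsp70Ab windows are the 250 bases before the gene start, shown because these inducible promoters had no optimal summit. None of the windows overlaps an annotated exon. Capitals mark matches to a pair of heat shock units (TTCNNGAA or GAANNTTC), GAGA (GAGAG or CTCTC), the TATA box (TATAAA), DRE (TATCGATA), the Motif 1 core (GGTCACAC) or an E-box (CAGCTG), on either strand. Neighbouring matches run together.
Hsp27 summit window (chr3L:9383803-9384003, plus strand): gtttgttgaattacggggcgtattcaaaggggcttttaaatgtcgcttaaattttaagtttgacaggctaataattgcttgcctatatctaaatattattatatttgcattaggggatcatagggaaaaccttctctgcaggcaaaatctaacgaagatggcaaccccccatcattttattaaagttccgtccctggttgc
Hsp26 summit window (chr3L:9377472-9377672, minus strand): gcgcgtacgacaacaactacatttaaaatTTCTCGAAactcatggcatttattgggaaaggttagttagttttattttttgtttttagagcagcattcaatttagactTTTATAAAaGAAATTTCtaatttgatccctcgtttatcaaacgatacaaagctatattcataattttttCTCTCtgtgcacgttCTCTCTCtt
DnaJ-H summit window (chr2L:13165082-13165282, minus strand): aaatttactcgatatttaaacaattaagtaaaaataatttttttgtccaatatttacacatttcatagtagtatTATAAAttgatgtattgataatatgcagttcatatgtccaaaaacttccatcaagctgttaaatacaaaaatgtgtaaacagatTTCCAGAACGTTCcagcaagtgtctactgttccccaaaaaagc
Hsc70-4 summit window (chr3R:15242408-15242608, plus strand): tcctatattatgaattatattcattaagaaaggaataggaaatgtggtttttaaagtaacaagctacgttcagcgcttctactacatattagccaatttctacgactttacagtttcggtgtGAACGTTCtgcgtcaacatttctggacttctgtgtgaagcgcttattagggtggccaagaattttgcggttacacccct
Hsp60A summit window (chrX:11108250-11108450, plus strand): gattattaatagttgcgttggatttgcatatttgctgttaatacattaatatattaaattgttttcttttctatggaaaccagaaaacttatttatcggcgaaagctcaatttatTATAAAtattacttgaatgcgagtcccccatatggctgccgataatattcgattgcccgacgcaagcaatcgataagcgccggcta
Hsp23 upstream window (chr3L:9381632-9381881, plus strand): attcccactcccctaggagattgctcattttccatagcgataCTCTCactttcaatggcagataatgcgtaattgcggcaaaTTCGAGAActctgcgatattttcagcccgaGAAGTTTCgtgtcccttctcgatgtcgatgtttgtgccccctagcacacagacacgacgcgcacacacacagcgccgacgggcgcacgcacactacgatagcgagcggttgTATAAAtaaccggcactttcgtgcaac
Hsp68 upstream window (chr3R:24057311-24057560, minus strand): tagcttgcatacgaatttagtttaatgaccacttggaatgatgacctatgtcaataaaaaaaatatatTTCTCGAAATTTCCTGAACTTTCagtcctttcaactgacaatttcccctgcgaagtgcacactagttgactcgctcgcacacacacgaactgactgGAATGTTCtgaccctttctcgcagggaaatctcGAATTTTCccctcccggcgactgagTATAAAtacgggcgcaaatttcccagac
Hsp70Ab upstream window (chr3R:11958285-11958534, plus strand): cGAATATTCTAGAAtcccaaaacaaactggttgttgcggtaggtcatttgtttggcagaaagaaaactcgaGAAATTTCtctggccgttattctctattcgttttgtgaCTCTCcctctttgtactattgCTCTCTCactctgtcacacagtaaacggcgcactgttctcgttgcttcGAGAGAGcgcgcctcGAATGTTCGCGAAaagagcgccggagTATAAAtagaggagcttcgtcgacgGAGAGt
No match lies in the Hsp27 window. The Hsp26 window holds a heat shock pair on each side of its centre, at 71 to 64 bases before and 17 to 24 bases after the summit. Counting overlapping matches, the Hsp70Ab window holds 5 heat shock pairs and the Hsp68 window 6. Neither gene had an optimal summit. The Hsp70Ab sequence is largely repeated, with 22.9% of 50-base words within 500 bp of its start found once in the genome. Its absent summit therefore cannot be told apart from reads that could not be placed. A match is only a match of letters, and the absence of one says nothing of a factor.

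The small heat shock genes sit together at cytological position 67B on chromosome arm 3L, and the strongest summit of all 35 genes was there, at Hsp27 (FBgn0001226, chr3L:9384063-9385694, plus strand). Hsp27 encodes a small heat shock protein that is also under developmental, ecdysone-linked control, and its known heat shock elements lie farther upstream than the window shown. Its peak had a signal of 850.5 in the optimal list, rank 100 of 4941, with the summit 160 bp upstream of the single annotated start. The signal is the authors' own value per peak. Its scale differs between lists, so it is also given relative to the median of the strongest 4941 peaks of each list. On that relative scale Hsp27 stood at 4.89, 5.17 and 4.57 in replicates 1, 2 and 3, 4.88 ± 0.297 (SD, n = 3). The next highest value in any replicate was 3.24, at DnaJ-H, so the Hsp27 values stood apart from all others.

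Hsp26 (FBgn0001225, chr3L:9376418-9377427, minus strand) encodes a small heat shock protein whose promoter is a textbook case of a nucleosome positioned between heat shock elements. Its summit had an optimal signal of 269.6 and rank 1225. It lay 145 bp upstream of the first start and 197 bp upstream of the second, between the pairs marked in its summit window. Its relative signal was 1.84, 1.46 and 1.54 in the 3 replicates. Those pairs lay at -216 to -209 and -128 to -121 bp from the first start. In replicates 1 and 2 the summit lay between them, at 136 and 174 bp upstream of that start. In replicate 3 it lay past the second of those pairs, at 112 bp upstream. A further pair lay 3 to 10 bp past the first start, outside the summit window. Which pairs flank the positioned nucleosome was not tested. Hsp22 (FBgn0001223, chr3L:9372931-9374964, plus strand) encodes the small heat shock protein of mitochondria. Its optimal summit, of signal 116.8 and rank 4090, lay 473 bp upstream of the second annotated start and 593 bp downstream of the first, in a 5′ untranslated exon of Hsp22 that overlaps the 3′ untranslated end of CG4456. In replicate 3 the stronger peak of this gene body, of relative signal 0.883, fell outside 500 bp, and the peak inside had 0.265, against 0.650 and 0.607 in replicates 1 and 2. Hsp22 is the gene closest to the distance limit in the optimal list.

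The other small heat shock genes of the cluster had no promoter summit in the optimal or the pooled list. Hsp23 had a weak one in replicate 1 only, 309 bp inside the gene at relative signal 0.228. Hsp67Ba had one in replicate 2 only, at 0.227, and Hsp67Bc in replicate 1 only, at 0.244, nearest to the start of CG4456. Each was therefore seen in 1 of 3 replicates, at rank 20799 of 30000 for Hsp23, 23158 of 24619 for Hsp67Ba and 18374 of 30000 for Hsp67Bc. Hsp23 lies 2021 bp from the Hsp27 summit, the nearest optimal summit. Over the whole 20184 bp window the optimal list held 4 summits, the fourth of them at signal 123.3, nearest to the start of Fdx1, a ferredoxin gene beside Hsp67Bc. The map of the cluster shows the same 4 sites in all 3 replicates, besides weaker summits that differ between them.

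**Figure D2:**
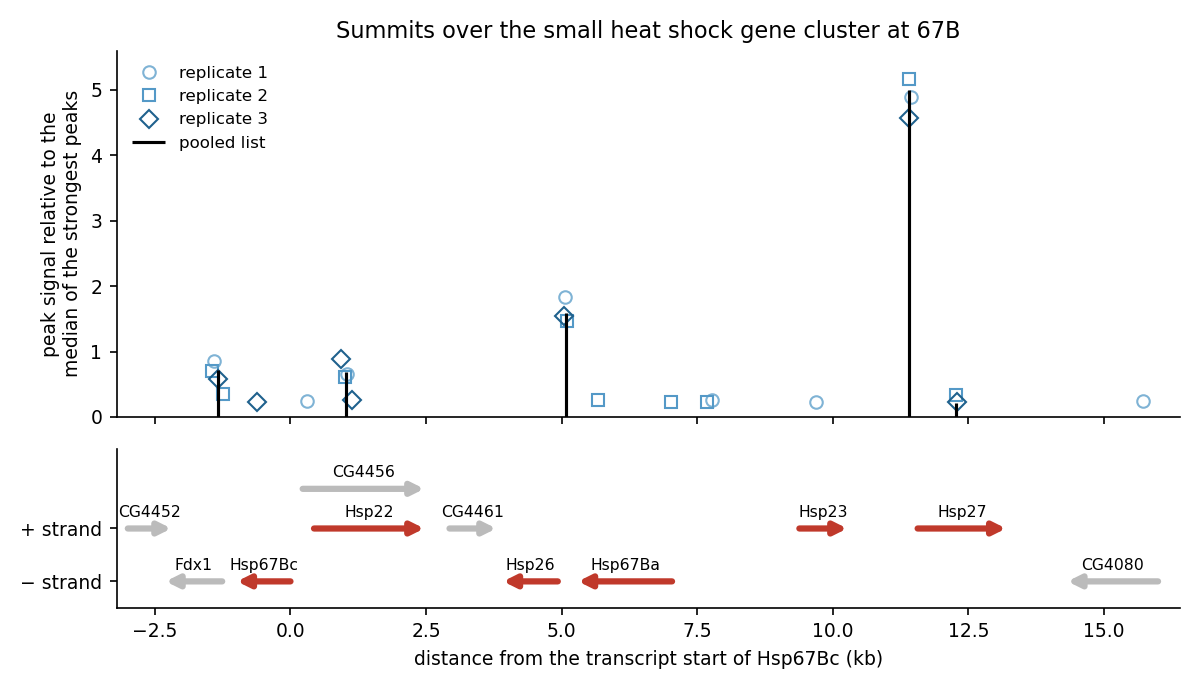
Summits over the 67B cluster, with relative peak signal (1 is the median of the strongest 4941 peaks of each list) against distance in kb from the Hsp67Bc start. Open symbols are replicates, lines are pooled peaks, red arrows are the heat shock genes examined and grey arrows are neighbours. The Hsp27 site at 11.4 kb stands at 4.57 to 5.17 in the replicates and the Hsp26 site at 1.46 to 1.84.

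Hsp83 (FBgn0001233, chr3L:3192969-3197059, plus strand), the Hsp90 gene, is both heat-inducible and abundant without heat. Its optimal signal was 296.6, rank 1040, and its relative signal was 1.84, 1.37 and 1.97 in replicates 1, 2 and 3. The summit lay 89 bp downstream of the first annotated start, within a 5′ untranslated exon, and 158 bp upstream of the second. A heat shock pair lay 90 to 97 bases past the summit. In the replicates the summit stayed on the same side of both starts, at 91 to 115 bp past the first.

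The other inducible genes with a pooled summit were weak. DnaJ-1, which encodes the main cytosolic DnaJ partner of Hsp70, had a pooled signal of 41.5, rank 14924 of 24641, 37 bp upstream of its start, and relative signals of 0.357 and 0.352 in replicates 1 and 3 with no summit in replicate 2. Hsp68, an inducible Hsp70 relative at a separate locus, had a pooled signal of 39.2, rank 16422, 71 bp downstream of its start. Its relative signals were 0.367 and 0.231 in replicates 1 and 2, with no summit in replicate 3. Both lie far below the lowest optimal signal, 99.6. Besides these and the 4 with an optimal summit, no inducible gene had a pooled summit.

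The 6 copies of Hsp70, the main heat-induced chaperone of the fly, lie in clusters at 87A and 87C on chromosome arm 3R. None had a promoter summit in any of the 5 lists. No summit of any list fell within the 6747 bp from Hsp70Aa to Hsp70Ab (chr3R:11954163-11960909) or the 46009 bp from Hsp70Ba to Hsp70Bc (chr3R:12465453-12511461). The nearest optimal summit was 4429 bp from the start of Hsp70Ab, with a signal of 325.5. The copies are nearly identical, so the sequence around their starts is repeated. Hsp70Bb, Hsp70Bbb and Hsp70Bc were identical over the whole 300 bases from 250 upstream to 50 downstream. Of all 50-base words within 500 bp of the start, 0.0% to 42.5% occurred once in the genome in the 6 copies (median 14.8%). In the other 29 genes the median was 100% and the lowest value 53.7%, at Hsp60D. How the authors treated reads that match several places is not stated in the labels or listings, so an absent summit at these copies cannot be told apart from reads that could not be placed. Hsp68, whose words all occurred once, is the inducible Hsp70 gene that this limit does not touch.

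**Figure D3:**
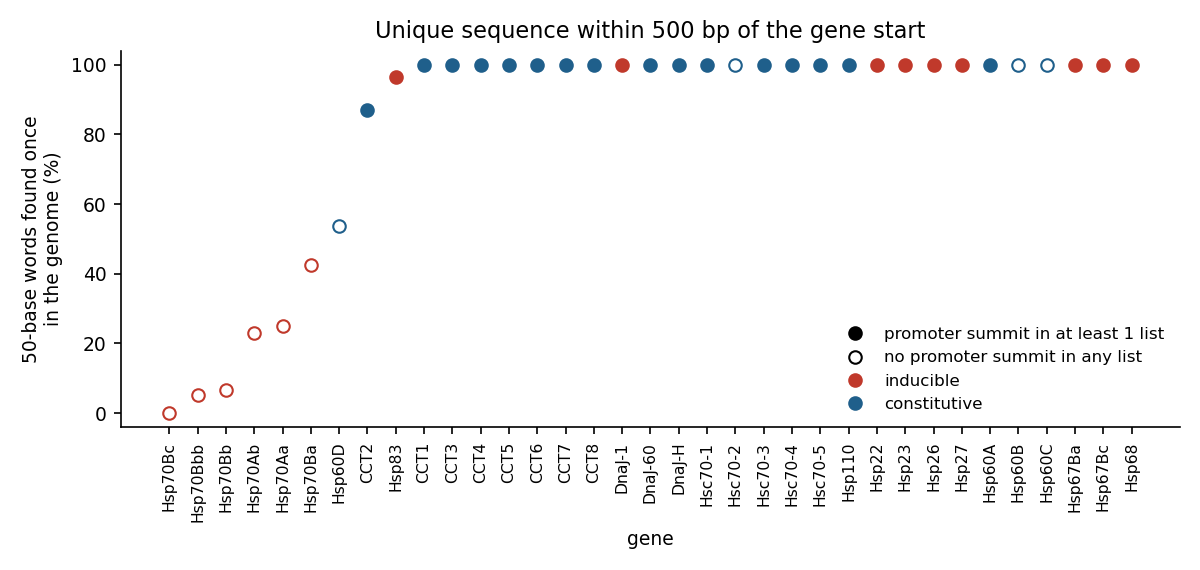
Share of 50-base words within 500 bp of each gene start that occur once in the genome, in percent, for the 35 genes. Filled points had a promoter summit in at least 1 list, open points in none. The 6 Hsp70 copies lie at 0.0% to 42.5%, and Hsp60D at 53.7%, all open, while Hsc70-2, Hsp60B and Hsp60C are open at 100%.

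Among the constitutive Hsc70 genes, Hsc70-5 (FBgn0001220, chr2R:14252598-14256192, minus strand), which encodes the mitochondrial Hsp70, had the highest signal. Its optimal peak of signal 415.5, rank 538, had its summit 1 bp downstream of the first annotated start, and the replicates placed it 0 to 5 bp downstream at relative signals of 2.33, 2.60 and 2.33. Hsc70-4 (FBgn0266599, chr3R:15242687-15246614, plus strand) encodes the abundant cytosolic Hsc70. Its signal was 315.7, rank 924, 179 bp upstream of the first of 6 starts, at relative signals of 1.88, 1.97 and 1.46. Both summits were also within 500 bp of the start of a neighbour, CG8531 for Hsc70-5 and tefu, the fly ATM kinase, for Hsc70-4. Hsc70-3, the BiP chaperone of the endoplasmic reticulum, lay just below the lowest optimal signal. Its pooled signal was 91.9, 138 bp upstream of an internal start, and its relative signal was 0.514, 0.442 and 0.435. Hsp110, formerly Hsc70Cb and a nucleotide exchange factor of Hsp70, had a pooled signal of 55.9 with no summit in replicate 2. Hsc70-1 had a summit in replicate 2 only, and Hsc70-2 in none.

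DnaJ-H (FBgn0032474, chr2L:13163209-13166072, minus strand) encodes a DnaJ co-chaperone. Its optimal peak, of signal 437.3 and rank 486, was the second strongest of the 35 genes, at relative signals of 2.10, 3.24 and 2.15. The summit lay within an intron, 164 bp upstream of an internal start and 890 bp downstream of the first, and within 500 bp of the start of Sirt1, an NAD-dependent deacetylase. The heat shock match of 3 units, marked in its sequence, lay 58 to 70 bases past the summit. It was the only one of the 11 summit windows with such a match. DnaJ-60 had a pooled signal of 85.1, with its summit within 500 bp of the starts of CG42568 and spag as well, and no optimal peak. Hsp60A (FBgn0015245, chrX:11108482-11112308, plus strand), the mitochondrial chaperonin, had an optimal signal of 121.0, rank 3898, 132 bp upstream, at relative signals of 0.832, 0.763 and 0.633. Its relatives Hsp60B, Hsp60C and Hsp60D had no promoter summit in any list. The sequence around the Hsp60D start is partly repeated, with 53.7% of 50-base words found once in the genome. Its absent summit therefore also cannot be told apart from reads that could not be placed.

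The 8 CCT genes encode the subunits of 1 ring complex. In the optimal list 3 of 8 had a summit (37.5%, interval 8.52 to 75.5), against 22.5% of all protein-coding genes. In the pooled list 7 of 8 had one (87.5%, interval 47.3 to 99.7), against 49.7%, with CCT4 absent from both. CCT8 (FBgn0284436, chr2R:8904844-8906990, minus strand) had the highest signal, 258.0, rank 1316, at relative signals of 1.57, 1.60 and 1.23. CCT3 (FBgn0015019, chr3R:16647605-16649978, plus strand) followed at 175.8, rank 2382, with 0.934, 1.33 and 0.835. CCT5 (FBgn0010621, chr2R:12174802-12177516, plus strand) had 160.3, rank 2731, with 0.862, 1.04 and 0.757. The CCT8 and CCT3 summits, 459 and 409 bp upstream, were nearer to the starts of CG30349 and CG10324, 69 and 192 bp away. The CCT5 summit, 146 bp upstream, was nearest to CCT5 and also within 500 bp of a start of Oda, which encodes the ornithine decarboxylase antizyme.

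Pooled signals of CCT7, CCT6, CCT2 and CCT1 were 73.3, 70.9, 50.4 and 34.2. Of these, CCT7 ranged in relative signal from 0.199 in replicate 1 to 0.642 in replicate 3, where it was among the strongest 4941 peaks. CCT6 ranged from 0.256 in replicate 3 to 0.593 in replicate 1. CCT1 had 0.234, 0.310 and 0.239 in replicates 1, 2 and 3, 0.261 ± 0.043 (SD, n = 3). CCT4 had a summit in replicate 3 only, at 0.221, nearer to the start of CG6153. All 8 genes thus had a promoter summit in replicate 3, against 7 and 6 in replicates 1 and 2. The shares of all protein-coding genes were 52.7%, 47.0% and 52.3% in replicates 1, 2 and 3.

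Setting the genes in order of optimal signal, the plot by replicate shows how far that order held. Hsp27 was above DnaJ-H in 3 of 3 replicates. DnaJ-H was above Hsc70-5 in 1 of 3, and Hsc70-4 above Hsp83, Hsp83 above Hsp26 and Hsp26 above CCT8 in 2 of 3 each, so these neighbours do not differ beyond the spread between replicates. The order held in all 3 replicates for 6 of the 10 neighbouring pairs. Among these, Hsp60A above Hsp22 held in replicate 3 with the weaker Hsp22 peak, 0.265 against 0.633 at Hsp60A. The stronger Hsp22 peak of that replicate, 0.883, fell outside 500 bp. The median optimal signal of the 11 genes was 269.6, against 197.6 over the 3137 protein-coding genes with an optimal summit. Inducible and constitutive genes with a summit had medians of 283.1 (4 genes) and 258.0 (7 genes). The lowest signals in the optimal list were 116.8 at Hsp22 and 121.0 at Hsp60A, and the highest signals outside it were 91.9 at Hsc70-3 and 85.1 at DnaJ-60.

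**Figure D4:**
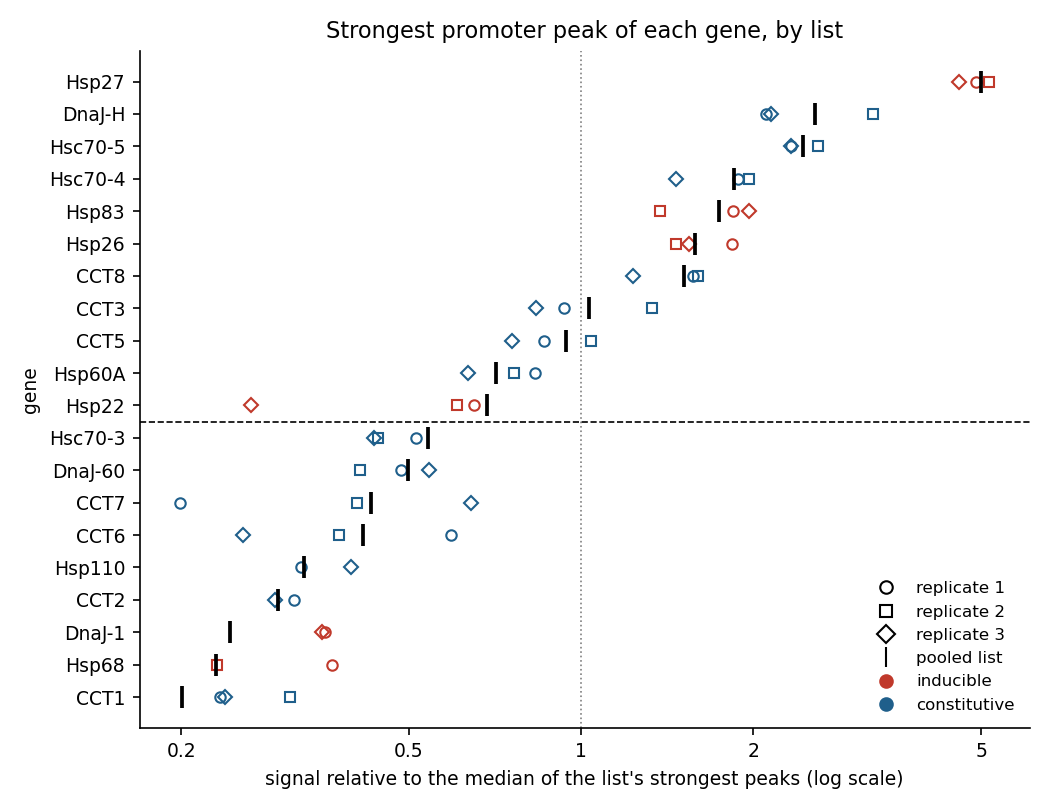
Signal of the strongest promoter peak of each gene with a pooled summit, relative to the median of the strongest 4941 peaks of the same list (log axis, dotted line at 1). Open symbols are replicates, black ticks the pooled list, red inducible and blue constitutive genes, and the dashed line separates the 11 genes with an optimal summit. Hsp27, at 4.57 to 5.17, is above every other gene in each replicate.

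Most summits lay upstream of the gene's nearest start, as 9 of 11 did in the optimal list against 90.1% of all protein-coding genes with an optimal summit. The exceptions were Hsc70-5 and Hsp83, measured from the first start. The median position was 160 bp upstream, against 136 bp upstream over all protein-coding genes called, and over the replicates it was 172 ± 10.7 bp upstream (SD, n = 3). Inducible and constitutive genes had medians of 144 ± 19.9 and 173 ± 11.5 bp upstream over the replicates (SD, n = 3). As the position plot shows, Hsp27, DnaJ-H, Hsc70-4, Hsp26, CCT5 and Hsp60A lay between 112 and 188 bp upstream in every replicate. CCT8, CCT3 and Hsp22 lay between 361 and 489 bp upstream. The replicates differed by 128 bp at Hsp22 and by at most 67 bp at each of the other 10 genes. At Hsp22 the replicate 3 position is that of a weaker peak, since the stronger one fell outside 500 bp.

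**Figure D5:**
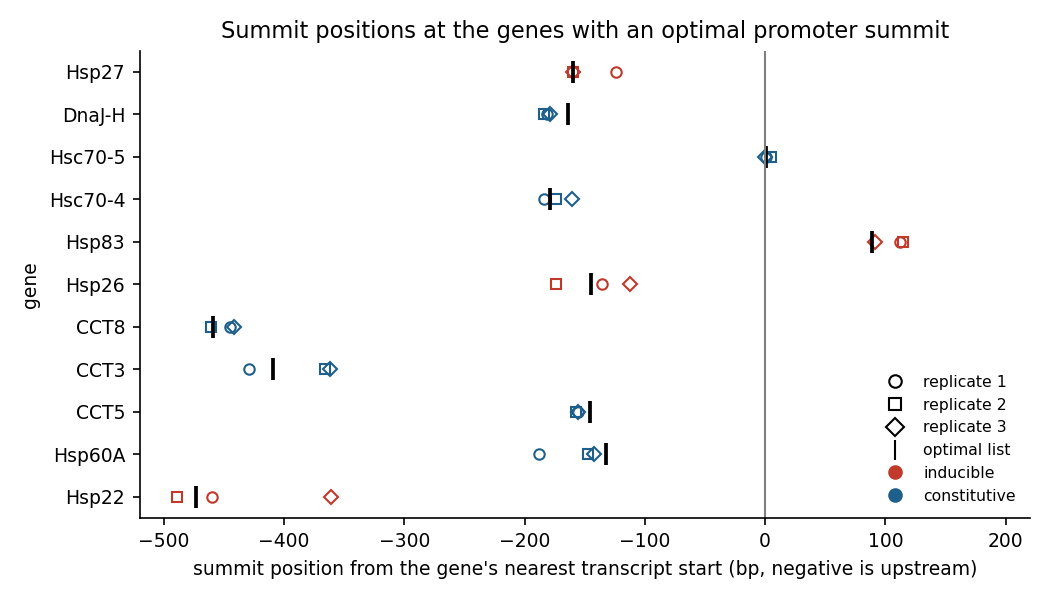
Summit position in bp from the gene's nearest transcript start, negative upstream, for the 11 genes with an optimal promoter summit, ordered by optimal signal. Open symbols are replicates, black ticks the optimal list, red inducible and blue constitutive genes. Hsc70-5 lies at 0 to 5 bp in each replicate, and Hsp83 at 91 to 115 bp.

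What stands next to the promoters was counted for each class. At 6 of the 7 constitutive genes with an optimal summit the summit was also within 500 bp of another protein-coding gene's start, at 0 of the 4 inducible ones, and at 60.3% of all protein-coding genes called. A coding gene on the opposite strand starting within 1000 bp upstream, here called a head-to-head neighbour, was found at 12 of 20 constitutive genes (60%), 5 of 15 inducible genes (33.3%) and 36.2% of all protein-coding genes. None of the 6 Hsp70 copies had one, and without them the inducible count was 5 of 9 (55.6%), close to that of the constitutive genes. Over all protein-coding genes 40.9% of those with such a neighbour had an optimal summit and 12.1% of those without. Among the genes examined these counts were 8 of 17 (47.1%) and 3 of 18 (16.7%), or 3 of 12 (25.0%) without the copies. These 3 were Hsp27, Hsp26 and Hsp60A. At 9 of 11 genes the gene's own start was the nearest to the summit, against 67.8% over all genes called, and the exceptions were CCT8 and CCT3. Where a summit is shared, the lists do not say to which promoter it belongs.

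The letters of the promoters were read in both classes, which were named for heat inducibility. In the 300 bases from 250 upstream to 50 downstream of the first start, a heat shock pair was found at 11 of 15 inducible and 6 of 20 constitutive genes, against 15.9% of all protein-coding genes. A match of 3 alternating units was found at 7 of 15 and 0 of 20, against 0.430%. These 7 were Hsp68 and the 6 Hsp70 copies. GAGA letters were found at 9 of 15 and 6 of 20, against 29.7%, and TATA box letters at 14 of 15 and 10 of 20, against 45.8%. The TATA box letters were counted at any place in the window and on either strand, so a match need not be a working TATA box. The 6 Hsp70 copies carry much of these inducible counts. With them set aside, a choice made after the data were seen, the inducible counts were 5 of 9 for the pair, 1 of 9 for the match of 3 units, 3 of 9 for GAGA (33.3%, near the constitutive and the overall share) and 8 of 9 for the TATA box. DRE, the Motif 1 core and the E-box were found at 5, 3 and 4 of the 35 genes, against 9.36%, 7.70% and 17.7%. A match of 3 units contains a pair, so these counts overlap. The median GC content of these windows was 44.7% at inducible genes (42.3% without the copies) and 36.2% at constitutive genes, against 38.0% overall.

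How heat shock letters relate to summits depends on which start is read and on the Hsp70 copies. At the first annotated start, 3 of 11 genes with an optimal summit and 14 of 24 without one had a heat shock pair. All 6 Hsp70 copies, whose missing summits cannot be read, are among the 14, and without them the second count was 8 of 18. With every annotated start read, an alternative added after the data were seen, the counts were 7 of 11 and 14 of 24, or 8 of 18 without the copies, against 19.9% of all protein-coding genes. The genes added were Hsp22, Hsp83, DnaJ-H and Hsp60A, each with an internal start. The match of 3 units was then at 2 of 11 and 7 of 24, DnaJ-H and Hsc70-4 being added, against 0.567%. Without the copies the latter count was 1 of 18, Hsp68 alone, so the order of these shares turns with the copies. Reading every start gives genes with several starts more windows in which a match can fall. Most genes with an optimal summit have several starts, up to 6 at Hsc70-4, while most without one have only 1. The counts over every start were not adjusted for this. Within 100 bp of the summits themselves, a heat shock pair was found at 4 of the 11 summits, against 10.6% of the 2422 optimal promoter summits, and GAGA letters at 1 of 11, against 18.5%. Those 4 were Hsp26, Hsp83, Hsc70-4 and DnaJ-H. The bases within 100 bp of the summits were 55.7% to 73.1% A or T, with a median of 69.2%, against 65.2% over all optimal promoter summits.

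Of a list of 36 further genes of the chaperone system, 33 were found in the annotation. The list was chosen with earlier results of these data known. An optimal promoter summit was present at 17 of 33 (51.5%), against 22.5% of all protein-coding genes. A pooled one was present at 26 of 33 (78.8%), against 49.7%. The shares of 51.5% and 78.8% are above those of the 35 genes, a difference that was not tested. At Trap1, Droj2, unc-45, Pfdn2 and Pfdn6 the optimal summit was nearest to another gene's start. With the nearest start only, 12 of 33 genes had an optimal summit, against 16.2% of all protein-coding genes. The highest signals were at mrj, a DnaJ protein, with 853.3 at rank 99, and at Rme-8, a DnaJ protein of endosomes, with 744.9 at rank 142. They were followed by mgr, a prefoldin subunit, at 399.2, starvin (stv), a BAG-family partner of Hsc70-4, at 305.5 and Cnx99A, the calnexin of the endoplasmic reticulum, at 270.9. Hsf, which encodes the heat shock factor itself, had a pooled but no optimal summit. The median signal of the 17 was 170.2, below that of the 11 genes.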

How the data were processed

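The deposited dm6 files are the authors' narrowPeak lists for 3 biological replicates, a pooled relaxed list and an optimal list chosen by reproducibility (the irreproducible discovery rate, IDR), per the labels and the listings deposited with them. Per the labels, chromatin was sonicated to 200 to 800 bp. Each list gives the authors' deposited signal per peak and a deposited summit offset, a count of bases from the peak's start. The labels and listings name no peak caller or aligner: not given in the sources used here. Lists hold no reads, so depth is unknown. The optimal list was exactly the strongest 4941 peaks of the pooled list. The list of replicate 1 holds exactly 30000 peaks. Lists on dm3 were not used.

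Summits were paired with all transcript starts of Ensembl release 115 (transposable elements left out) on 6 arms, at up to 500 bp. A gene with several summits took the strongest. Intervals are exact Clopper-Pearson at 95% and cover counting error only. With 1 group there is no test between conditions and no p-value. The pairing was tested on simulated summits, of which 1683 of 1683 placed within 500 bp were found at the right gene and distance. The 1317 placed farther give no test, since the pairing returns no distance beyond 500 bp. Members, classes, lists and motifs were chosen with earlier results of these data known. Every member is accounted for. Full values are given for each with an optimal summit and each inducible gene with a pooled one. Of other chaperone genes the 5 of highest signal and Hsf are named. By current symbols, CG4456 (formerly Hsp67Bb) is not a member. Python 3.11.15, NumPy 2.4.6, pandas 2.3.3 and SciPy 1.17.1 were used.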

Additional observations from a re-analysis of the deposited data

How the results depend on the processing

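No paired analysis was possible because there is 1 group. Counts of genes with an optimal summit were recomputed with 250 or 1000 bp, only the stronger 50% of peaks, peaks found in all 3 replicates (by 1 bp or by 50% of their length), the nearest start only, the first start only and the peak midpoint. Over these the count ranged from 8 to 11 for all 35 genes, 3 to 4 for inducible and 5 to 7 for constitutive genes. It was 8 at 250 bp, where CCT3, CCT8 and Hsp22 were lost (17.9% of all protein-coding genes there), 11 at 1000 bp (25.4%), 8 with the stronger peaks (13.4%), 9 with the nearest start only (CCT3 and CCT8 lost, 16.2%) or the first start only (DnaJ-H and Hsp22 lost, 20.4%), 11 with peaks in all replicates (17.7%, or 16.9% by 50% of length) and 11 by midpoint (22.5%). Each replicate was also ignored in turn, by keeping only optimal peaks that overlapped a strongest peak in both others. This gave 11, 4 and 7 every time (18.8% to 19.0% of all), and 13 to 15 of the 33 other chaperone genes. The optimal peaks and summits still came from all 3 replicates, so these counts could only stay or fall. Matching symbols in either case added 2 genes and gave 12. With Hsp83 and DnaJ-1 counted as constitutive the classes had 3 of 13 and 8 of 22. Only the pooled list moved the members' counts by over 1.5 times, to 20 of 35 and, for constitutive genes, 14 of 20. For the other chaperone genes the count of 17 moved to 26 in the pooled list and 8 with the stronger 50% of peaks. The median summit position, 160 bp upstream, became -146 bp with the first start only (9 genes), and -181 and -174 bp in the lists of replicates 1 and 2, shifts larger than the SD of 10.7 bp over replicates. The cause of these shifts was not tested. Depth is unknown, so a missing summit cannot be read as absence of binding.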
